A study of Chlorocebus sabaeus with 45 samples.

Results

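Transcripts of the heat shock response and of the housekeeping chaperones were followed in the blood of vervet monkeys (Chlorocebus sabaeus) through relocation and quarantine. The set was chosen by name: the transcription factor HSF1 and the chaperones HSPA5, HSPA8, HSPA9, HSP90AA1, HSP90B1, HSPH1, HSPD1, HSPE1 and DNAJB1. Of these 10 genes, 9 were found by symbol among the 33994 rows of every sample table. HSPE1, the partner of HSPD1, was not analysed here. The animals were 15 wild-born juvenile males trapped on St. Kitts, 1 from each troop, and each gave blood at all 3 time points, which made 45 libraries. On day 0 (Tp1) they were bled in the field shortly after trapping, under ketamine and xylazine. On day 3 (Tp2) and day 14 (Tp4) they lived in individual cages in a primate facility and were bled under dexmedetomidine and midazolam. Every animal went through the same course and no unstressed group was followed in parallel, so place, sedative, housing and elapsed time cannot be told apart in the comparisons with day 0.

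Chaperones hold unfolded proteins, help them fold and pass them on for degradation. In the cytosol HSF1 is kept inactive by chaperones. When unfolded proteins or certain other stresses occupy those chaperones, HSF1 binds heat shock elements and switches on genes such as HSPA1A, HSPH1 and DNAJB1. The endoplasmic reticulum and the mitochondria have their own chaperones and their own stress signals, of which the unfolded protein response of the endoplasmic reticulum is the best known inducer of HSPA5 and HSP90B1. Glucocorticoid receptors, which carry cortisol signals in blood cells, are held ready for hormone by HSP70 and HSP90, and FKBP5 and FKBP4 are co-chaperones of that complex.

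The values are FPKM, fragments per kilobase of gene scaled to the total of fragments on genes, and each library had between 13216275 and 31469332 such fragments. Changes were fitted with limma to log2 values after TMM scaling (trimmed mean of M values), which sets the typical gene to no change, and a call means a Benjamini-Hochberg adjusted p under 0.05 over 18753 tested genes. The composition of the blood RNA moved with the day. The summed level of 11 erythroid markers had medians of 6124, 16061 and 28863 FPKM on the 3 days and was higher than on day 0 in 14 of 15 animals at both later times. The summed level of 10 neutrophil markers had medians of 4554, 2930 and 1587 FPKM, and was lower on day 14 in 14 animals. Of 6 platelet markers 6 were called higher on day 3, where 6.04% of all tested genes were, with a summed median of 631 FPKM on day 0 and 2196 on day 3. On day 14, 2 of them were called higher, and 0 with the RNA integrity number of the samples in the model. Of 7 NK cell markers 5 and of 7 markers of proliferating cells 7 were called higher on day 14, where 18.8% of all tested genes were. The monocyte sum had medians of 1624, 1613 and 1255 FPKM and was lower on day 14 in 11 animals. The B cell sum had medians of 336, 320 and 148 FPKM and was lower on day 14 in 9 animals. In such bulk samples fewer cells of a type and less RNA per cell cannot be told apart, and the part of cell composition in the results that follow was not tested. Without TMM the median log2 change of all tested genes on day 14 was −0.36, so changes on that day are relative to the typical gene. For single genes, ranges and counts of animals beyond a range are in FPKM before scaling. Their counts of animals higher or lower than on another day use scaled values. The TMM factors had medians of 1.14, 1.13 and 0.788 on days 0, 3 and 14.

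Over all days HSPA8 was by far the most abundant of the set, and HSF1 the least. The constitutive cytosolic HSP70, HSPA8, averaged 1002 FPKM on day 0, and its level per length was above that of HSP90AA1 in 15 of 15 animals on each day. HSPA8 alone made up 70.3% ± 5.80 (SD, n = 15) of the set's fragments on day 0. On the later days its share was 65.9% ± 2.77 and 65.2% ± 6.77. The 9 genes together took 0.397% ± 0.286 of all fragments on day 0, against 0.237% ± 0.0533 by day 3 and 0.226% ± 0.0623 by day 14. By mean level on day 0, HSP90AA1 (184 FPKM), HSPH1 (125 FPKM) and DNAJB1 (75.2 FPKM) stood next below HSPA8. HSPA5 (43.5 FPKM), HSP90B1 (39.9 FPKM), HSPA9 (36.4 FPKM), HSPD1 (25.8 FPKM) and HSF1 (6.89 FPKM) followed. The means of the stress-inducible genes on day 0 were raised by a few animals: DNAJB1 was above HSPA5 in only 5 of 15 animals although its mean was 1.73 times as high. HSPA5 and HSP90B1, and HSP90B1 and HSPA9, did not separate on that day, with the first of each pair higher in 9 of 15 animals. On day 3 and day 14 HSPA5 ranked 3 in mean level, at 58.2 and 59.8 FPKM, and DNAJB1 had dropped below HSPA9, at 24.3 and 20.3 FPKM. HSPH1 and HSPA5 did not separate on day 14, when HSPA5 was higher in 8 animals.

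**Figure D1:**
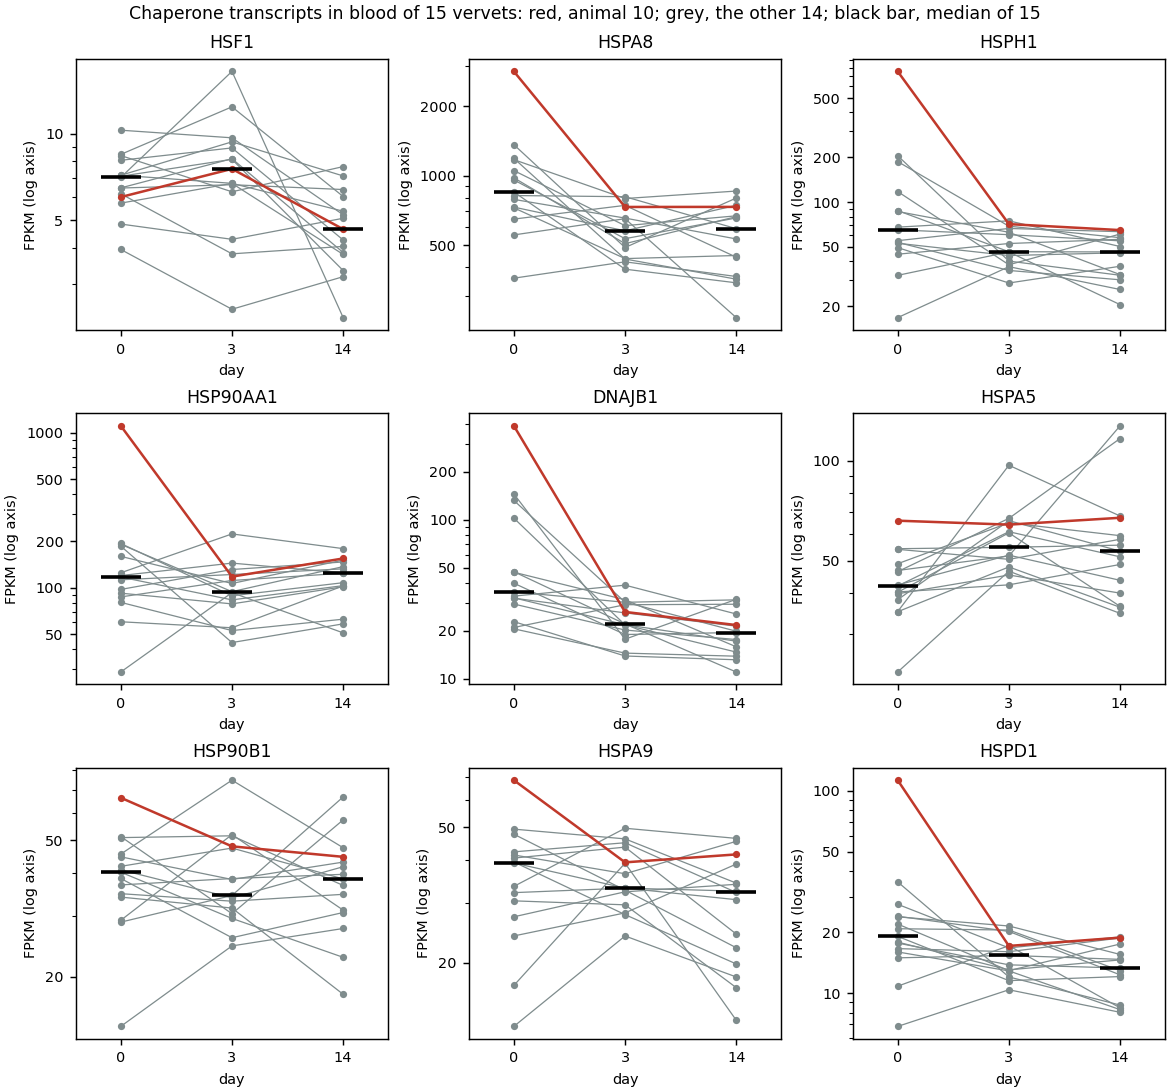
FPKM (log axis) of the 9 measured genes on days 0, 3 and 14; each line is 1 of 15 animals, red is animal 10 and the black bars are medians. On day 0 animal 10 lies far above the others for HSPA8, HSPH1, HSP90AA1, DNAJB1 and HSPD1 (755 FPKM of HSPH1 against 205 in the next animal) and falls among them on day 3, while its HSF1 stays within the group.

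On day 3 limma called 2 of the 9 genes, DNAJB1 and HSPA8, both lower than on day 0, and 0 higher. Of all tested genes 12.2% were called in this comparison, 6.04% higher and 6.19% lower, and 5 of the 9 had an unadjusted p under 0.05. On day 14 HSPA5 and HSP90B1 were called higher than on day 0 and DNAJB1 lower, which is 3 of 9 where 36.0% of all tested genes were called (18.8% higher and 17.3% lower). Between day 3 and day 14 limma called 0 of 9, with 2 at an unadjusted p under 0.05, against 13.3% of all tested genes (8.32% higher). The same counts came from limma-voom on the recovered fragments. Without scaling, 1 was called higher on day 14 and 5 lower, and of all tested genes 1460 higher and 7830 lower. The median log2 fold change of the 9 genes was −0.34 on day 3 and −0.12 on day 14 against day 0, beside 0.01 and −0.02 over all tested genes. With a term for each animal, the replicate block, the calls on day 3 and on day 14 against day 0 were the same in number, where it called 19.2% and 44.0% of all tested genes, and HSP90B1 was called higher between day 3 and day 14 (log2 fold change 0.34, adjusted p = 0.0207), where 23.8% of all tested genes were then called.

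**Figure D2:**
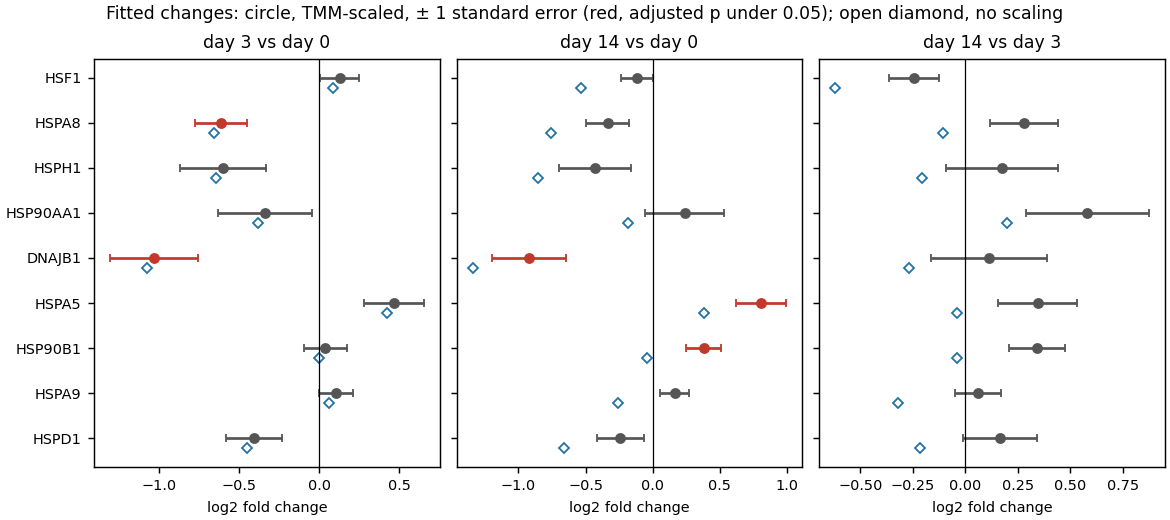
Fitted log2 fold change of each gene in the 3 comparisons; circles are TMM-scaled values with ± 1 standard error, red where the adjusted p was under 0.05, and open diamonds are the same fit with no scaling between libraries. DNAJB1 is near −1 in both comparisons with day 0, HSPA5 lies to the right, and on day 14 every diamond lies to the left of its circle, for HSP90B1 at −0.05 against 0.38.

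HSF1, the master regulator of the cytosolic heat shock genes, was a low transcript that did not pass the test at any time. Its FPKM ran from 3.96 to 10.3 on day 0 (median 7.04), from 2.46 to 16.4 on day 3 (median 7.54) and from 2.30 to 7.68 on day 14 (median 4.66). The groups overlapped throughout, with the widest range on day 3, when animal 8 was highest and animal 7 lowest. In the fit its log2 fold change was 0.13 (standard error 0.12, adjusted p = 0.557) on day 3 and −0.12 (0.12, 0.463) on day 14 against day 0, lower in 6 and 10 of 15 animals. Without scaling the value on day 14 was −0.54 with an adjusted p of 0.0143, so the call for HSF1 depended on the scaling. On day 0 the spread of HSF1 between animals, an SD of 0.23 on the log2 scale, was below the 0.43 of the typical tested gene. HSF1 is regulated in good part at the protein level, which these data do not measure.

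HSPA8 and its nucleotide exchange factor HSPH1, an HSP110, both work in the cytosolic HSP70 cycle. HSPA8 ranged from 359 to 2838 FPKM on day 0 (median 850), from 393 to 811 on day 3 (median 577) and from 242 to 858 on day 14 (median 589). In FPKM, 9 animals on day 0 lay above every day 3 value, and animal 7 lay below all of them. After scaling animals 8, 9 and 12 were no longer above the highest day 3 level, while animal 15 was. Animal 7 was then inside the day 3 range, at a log2 level of 9.02 against a lowest of 8.17. HSPA8 fell by day 3 (log2 fold change −0.61 with a standard error of 0.16, adjusted p = 0.010), a 1.53-fold lower level, and was lower in 11 of 15 animals. On day 14 the log2 fold change of HSPA8 against day 0 was −0.34 (standard error 0.16) with an adjusted p of 0.0965, again lower in 11 animals. This was a call with the RNA integrity number (RIN) of the samples in the model (−0.67, adjusted p = 0.00335) and without scaling (−0.76, adjusted p = 0.00123). The call on day 3 held whichever animal was left out, with adjusted p between 0.00630 and 0.0295, and leaving out animal 10 gave −0.51.

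HSPH1 ranged more widely on day 0 than HSPA8 did. It lay between 16.8 and 755 FPKM on day 0 (median 65.2), between 28.6 and 74.8 on day 3 (median 46.4) and between 20.5 and 64.9 on day 14 (median 46.3). In FPKM, 6 animals on day 0 were above the whole range of day 3 and 8 above that of day 14, while animal 7 was below both. After scaling animals 9, 12 and 14, at log2 levels of 5.45, 5.68 and 5.95, were no longer above day 14, where the highest level was 6.125. The means were 125, 51.5 and 45.3 FPKM, but the fitted log2 fold changes of HSPH1, −0.60 (standard error 0.27, adjusted p = 0.137) and −0.43 (0.27, 0.215), did not pass the test, and without animal 10 they were −0.40 and −0.22. It was lower than on day 0 in 9 animals on day 3 and in 8 on day 14. With RIN in the model HSPH1 was called lower at both times (−0.84, adjusted p = 0.0348, and −0.92, adjusted p = 0.0199), and without scaling on day 14 only (−0.85, adjusted p = 0.0148).

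DNAJB1, the HSP40 that delivers unfolded clients to HSP70 and a classic target of HSF1, fell most of the set. On day 0 it ranged from 20.6 to 388 FPKM (median 35.2), with animals 10, 11, 13 and 3 at 388, 145, 132 and 102 FPKM and the others at 47.1 or less. It ranged from 13.9 to 38.8 FPKM on day 3 (median 22.1) and from 11.1 to 31.6 on day 14 (median 19.6). In FPKM day 0 and the later days overlapped only in part: 7 animals on day 0 were above all 15 values of day 3, and 11 were above all of day 14. After scaling animals 4, 8, 9 and 12 were no longer above day 14. Their log2 levels were 4.87, 4.72, 4.43 and 4.65, against a highest day 14 level of 5.05. The log2 fold change of DNAJB1 was −1.03 on day 3 (standard error 0.28, adjusted p = 0.0117), a 2.04-fold lower level, and it was lower in 13 of 15 animals. On day 14 it was −0.92 (0.28, 0.00785), or 1.89-fold lower, in 11 of 15 animals. Both calls held whichever animal was left out. Without animal 10 the values were −0.82 (adjusted p = 0.0197) and −0.70 (adjusted p = 0.0181).

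HSP90AA1, the stress-inducible cytosolic HSP90, did not pass the test in any comparison. It ranged from 28.6 to 1109 FPKM on day 0 (median 117), from 44.3 to 223 on day 3 (median 94.5) and from 51.2 to 179 on day 14 (median 124). In FPKM animal 7 on day 0 was below every later value, and 4 animals on day 0 were above every day 14 value. Otherwise the groups lay over each other. After scaling animal 7, at a log2 level of 5.38, was above animal 3 on day 3 (5.29). Animal 10 (9.94) stayed above the highest day 14 level (8.09), and the next day 0 animal, animal 11 (7.75), did not. The log2 fold change of HSP90AA1 was −0.34 (standard error 0.29, adjusted p = 0.503) on day 3 and 0.24 (0.29, 0.558) on day 14, and without animal 10 it was −0.13 and 0.45. The sign on day 14 turned without scaling (−0.19) and with RIN in the model (−0.18). The length behind its FPKM was 1357 bases, shorter than the 2250 to 3772 bases of the other 8 genes, and 2 rows without a gene name followed it almost exactly. These were LOC103236665 and LOC103237450, with Spearman correlations of 0.986 and 0.985 to HSP90AA1 over the 45 samples after removal of the time point means. RefSeq lists the former as a pseudogene. How reads were shared among near-identical copies was not tested, so the level of HSP90AA1 is uncertain.

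The chaperones of the endoplasmic reticulum in the set were HSPA5 and HSP90B1. HSPA5, also called BiP, is the HSP70 of that compartment and the sensor partner of the unfolded protein response. It ranged from 23.1 to 66.0 FPKM on day 0 (median 42.0), from 42.3 to 97.0 on day 3 (median 54.9) and from 34.7 to 128 on day 14 (median 53.5). Of the 15 day 0 values in FPKM 9 lay below every day 3 value, and 3 values of day 3 lay above every value of day 0. After scaling animals 1, 11 and 13 on day 0 were no longer below every day 3 value. On day 14 the group split, with animals 8 and 15 at 128 and 117 FPKM and the next at 68.2. HSPA5 rose by day 14 (log2 fold change 0.81 with a standard error of 0.19, adjusted p = 6.99e-04), a 1.75-fold higher level, and was higher in 15 of 15 animals. The call held whichever animal was left out (log2 fold change between 0.69 and 0.86), with RIN in the model (0.76, adjusted p = 0.0118) and without scaling, where the value was 0.38 (adjusted p = 0.0380). On day 3 the log2 fold change of HSPA5 was 0.47 (standard error 0.19), higher in 14 of 15 animals, with an adjusted p of 0.0943. This became a call without animal 8 (0.50, adjusted p = 0.0472) or without animal 15 (0.50, adjusted p = 0.0477). The day 14 libraries of animals 8 and 15 had the lowest TMM factors of that day, 0.575 and 0.537 against a median of 0.788. The erythroid sum of animal 8 was the highest of the day at 38379 FPKM, and that of animal 15 was the median, 28863 FPKM.

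HSP90B1, also called GRP94, is the HSP90 of the endoplasmic reticulum and folds integrins and Toll-like receptors. Its mean level was 39.9, 39.6 and 38.7 FPKM on the 3 days. It ranged in FPKM from 14.3 to 66.4 on day 0 (median 40.3), from 24.6 to 74.7 on day 3 (median 34.5) and from 17.8 to 66.8 on day 14 (median 38.5). The ranges lay over each other almost entirely. Relative to the typical gene HSP90B1 was called higher on day 14 (log2 fold change 0.38 with a standard error of 0.13, adjusted p = 0.0233), a 1.30-fold higher level, in 13 of 15 animals. The call was lost without animal 7 (adjusted p = 0.0589), 13 (0.0598) or 14 (0.0587) and with RIN in the model (0.19, adjusted p = 0.401). Without scaling the log2 fold change of HSP90B1 was −0.05 (adjusted p = 0.834). On day 3 its log2 fold change was 0.04 (0.13, 0.902).

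The mitochondrial chaperones were HSPA9, the HSP70 known as mortalin that pulls imported proteins into the matrix, and HSPD1, the chaperonin HSP60. HSPA9 ranged from 13.03 to 68.6 FPKM on day 0 (median 39.2), from 24.0 to 49.6 on day 3 (median 33.1) and from 13.6 to 46.3 on day 14 (median 32.2), and the groups overlapped. Its log2 fold changes were 0.10 (standard error 0.11, adjusted p = 0.600) and 0.16 (0.11, 0.245), and on day 14 the sign turned without scaling (−0.26) and with RIN (−0.03). HSPD1 ranged from 6.85 to 113 FPKM on day 0 (median 19.1), from 10.4 to 21.5 on day 3 (median 15.4) and from 8.04 to 19.0 on day 14 (median 13.3). On day 0, 6 animals lay above all of day 3 and 8 above all of day 14. The log2 fold changes of HSPD1 were −0.41 (0.18, 0.124) and −0.24 (0.18, 0.294), lower in 11 animals on day 3 but in 6 on day 14, and without animal 10 they were −0.24 and −0.084. With RIN in the model HSPD1 was called lower on day 3 (−0.54, adjusted p = 0.0428), and without scaling on day 14 (−0.66, adjusted p = 0.00934).

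The day 0 library of animal 10 stood apart through its heat shock genes. Its HSPH1 was 12.6 times the median of the other 14 day 0 samples, its DNAJB1 11.4 times, its HSP90AA1 9.65 times, its HSPD1 6.11 times and its HSPA8 3.40 times. Its FPKM of HSPA9, HSPA5 and HSP90B1 were also the highest, at 1.89, 1.61 and 1.68 times the median of the others, though after scaling it came second to another animal for HSPA5. HSF1 was the exception, at 6.02 FPKM against a median of 7.08, which put animal 10 in place 12 of 15. Together the 9 genes took 1.36% of the fragments of this library, the most of any.

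Animal 10 also stood apart in inducible chaperones outside the named set. HSPA1A and HSPA1B are the stress-inducible HSP70 genes, near-identical copies between which reads can be split, so they are best read together. Animal 10 had 156 FPKM of HSPA1A on day 0, 22.5 times the median of the others, and 160 FPKM of HSPA1B, 34.7 times. HSPA6, an HSP70 that is almost silent without stress, was at 19.6 FPKM, 4.57 times the median of the others, and BAG3, the co-chaperone that links HSP70 to autophagy, at 15.4 FPKM, 12.9 times. DNAJA1 (5.77 times), the constitutive HSP90AB1 (3.72 times) and the HSP90 co-chaperones FKBP4 (9.55 times), AHSA1 (5.34 times), PPID (4.89 times) and STIP1 (4.28 times) were also highest there. FKBP4, AHSA1, PPID and STIP1 were picked for this comparison after their values were seen. FKBP5, the co-chaperone that glucocorticoids induce, was not raised: 22.4 FPKM against a median of 34.9 in the others, place 14 of 15. The paper reports high hair cortisol in this animal, VSC00010, both at baseline and after quarantine. How hair cortisol relates to these transcripts was not tested. By day 3 animal 10 had 4.05 FPKM of HSPA1A, 26.3 of DNAJB1 and 71.2 of HSPH1, within the range of the other animals.

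Animal 10 was not the only one with inducible HSP70 above the later range. The highest HSPA1A of any day 3 or day 14 sample was 7.46 FPKM, and 8 of the 15 day 0 samples were above every day 3 value. On day 0 HSPA1A was 40.3 FPKM in animal 11, 33.2 in animal 13, 24.9 in animal 7 and 23.4 in animal 3, and the group's median was 7.82. HSPA1B was 35.0 FPKM in animal 11, 41.7 in animal 13, 5.78 in animal 7 and 29.98 in animal 3. The animals with high HSPA1A were therefore largely, but not wholly, those with high DNAJB1: animal 7 had the lowest FPKM of all 9 measured genes of the set on day 0. That library had the lowest TMM factor of its day, 0.690 against a median of 1.14, and after scaling it was still the lowest for HSPA9, HSP90AA1, HSP90B1, HSPH1 and HSPD1 but not for DNAJB1, HSF1, HSPA5 and HSPA8.

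**Figure D3:**
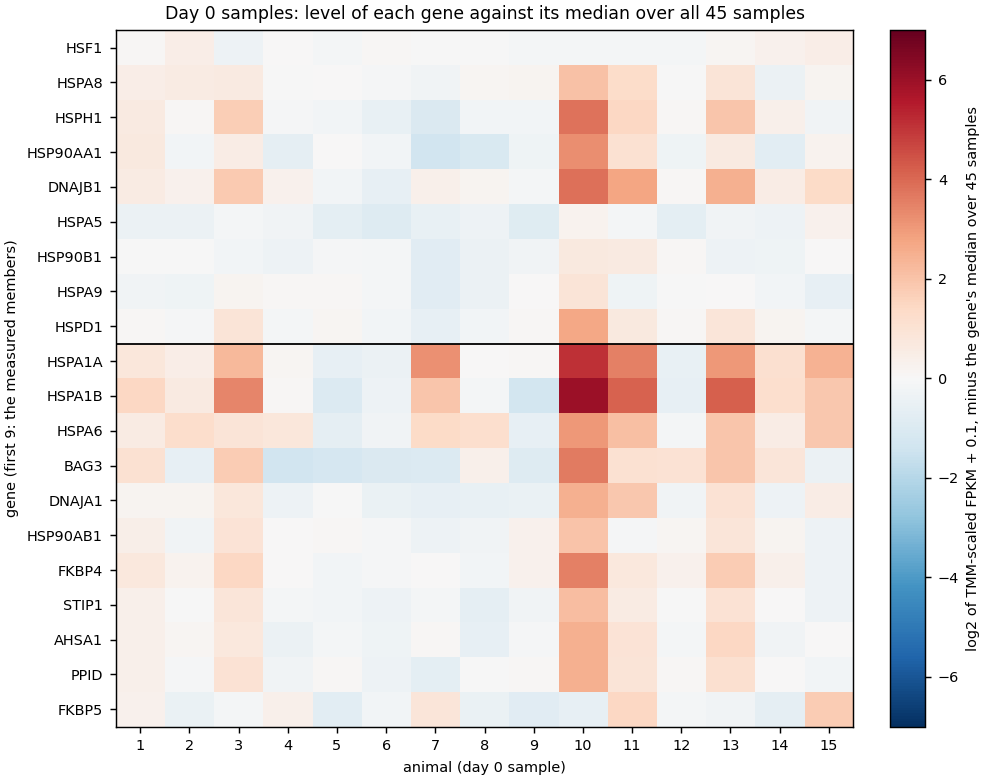
Colour map of the 15 day 0 samples (columns) for the 9 measured genes (above the line) and 11 related genes: log2 of the TMM-scaled level minus the gene's median over all 45 samples, red above and blue below. Animal 10 is deep red for DNAJB1, HSPH1, HSP90AA1, HSPA1A and HSPA1B but not for HSF1 or FKBP5, and animals 3, 11 and 13 are red for DNAJB1 and HSPA1B.

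DNAJB1, HSPH1 and HSPD1 varied more between animals on day 0 than on the later days. The SD of log2 levels of DNAJB1 was 1.28 on day 0, 0.27 on day 3 and 0.32 on day 14. For HSPH1 it was 1.23, 0.35 and 0.26, and for HSPD1 0.79, 0.24 and 0.19. The typical tested gene had 0.43, 0.41 and 0.40. The day 0 to day 3 ratio of the SDs was 4.69 for DNAJB1, 3.55 for HSPH1 and 3.36 for HSPD1, and 0.208%, 0.565% and 0.667% of all tested genes had a larger ratio. Without animal 10 the ratios were 3.60, 2.53 and 1.76, and 0.576%, 2.30% and 10.5% of genes had a larger one. HSPA8 had SDs of 0.64, 0.34 and 0.26 and HSPA9 of 0.39, 0.23 and 0.24. Their ratios were 1.91 and 1.68, with 6.94% and 11.6% of genes larger. Without animal 10 these were 1.36 and 1.16, with 24.3% and 37.9% larger. For HSP90AA1 the ratio went from 1.65 to 1.01 without animal 10, so the excess of its day 0 spread over day 3 rested on that library, and its day 0 SD was then 0.69. HSPA5 had SDs of 0.35, 0.35 and 0.76, the widest on day 14. These ratios are a description and were not tested.

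Changes within animals were compared for 3 pairs of chaperones that share a compartment, with no test of a difference between the pairs. Over the 15 animals the change of HSPA8 from day 0 to day 3 followed that of HSP90AA1 (Pearson r = 0.843, permutation p = 9e-05, adjusted p = 0.00024 over 6 relations; Spearman rho = 0.832, permutation p = 0.0002, adjusted p = 0.00054). From day 0 to day 14 the correlation of this pair was 0.835 (permutation p = 0.00022, adjusted p = 0.00033; rho = 0.704, p = 0.00467, adjusted p = 0.007). Left without the 2 animals farthest from the median, r was 0.734 and 0.616. HSPH1 and DNAJB1 were related with r = 0.876 on day 3 (permutation p = 0.00012, adjusted p = 0.00024; rho = 0.839, p = 0.00027, adjusted p = 0.00054) and with r = 0.932 on day 14 (p = 2e-05, adjusted p = 0.00012; rho = 0.914, p = 1e-05, the smallest these permutations can give, adjusted p = 6e-05). Without the 2 most extreme animals r was 0.772 and 0.839. Both comparisons use the same day 0 samples. The pair of the endoplasmic reticulum, HSPA5 and HSP90B1, was not shown to move together: r = 0.464 on day 3 (permutation p = 0.082, adjusted p = 0.0984; rho = 0.471, p = 0.0771, adjusted p = 0.0925) and r = 0.170 on day 14 (p = 0.546, adjusted p = 0.546; rho = 0.279, p = 0.313, adjusted p = 0.313), or 0.478 and 0.359 without 2 animals.

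**Figure D4:**
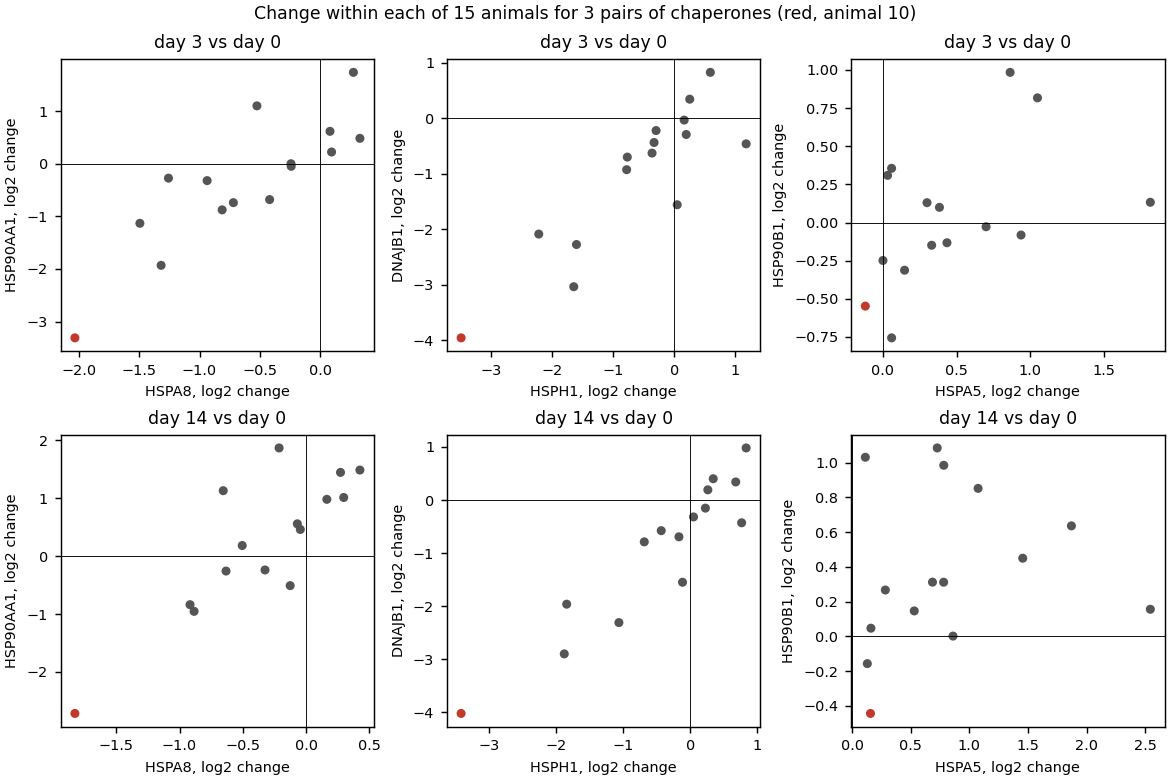
Log2 change of TMM-scaled levels within each of 15 animals (points) from day 0 to day 3 (top) and day 14 (bottom) for 3 pairs of chaperones; red is animal 10. The HSPH1 and DNAJB1 points lie along a line with r = 0.876 and 0.932, while those of HSPA5 and HSP90B1 scatter (0.464 and 0.170).

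The residual pattern over the 45 samples, after removal of the time point means, is given as a description. The 10 pairs among HSPA8, HSP90AA1, HSPH1, DNAJB1 and HSPD1, grouped after their values were seen, had Spearman correlations between 0.562 and 0.813, with mitochondrial HSPD1 at 0.651 to 0.809 to the cytosolic genes. Some pairs outside this group were as high, such as HSPA9 with HSPD1 (0.651), HSP90B1 with HSP90AA1 (0.645) and HSPA9 with HSPA8 (0.583). HSF1 with each of the other 8 genes gave −0.364 to 0.106, and HSPA5 with the others −0.138 to 0.457. Among all tested genes the most alike to HSPH1 were FKBP4 (0.918) and PPID (0.913), and to HSPA8 TCP1 (0.852), a subunit of the cytosolic chaperonin, and AHSA1 (0.842), the activator of the HSP90 ATPase. DNAJB1 was most like JMJD6 (0.833) and HSPH1 (0.799). HSPD1 was most like LOC103216190 (0.898), which RefSeq lists as a pseudogene, and PPID (0.853). HSPA5 was most like SIAH2 (0.768), a ubiquitin ligase, and HNRNPK (0.680), HSP90B1 like STX18 (0.768) and NASP (0.758), HSPA9 like EIF3D (0.901) and XRCC6 (0.870), and HSF1 like TRIM8 (0.799) and JAK3 (0.784). Without animal 10 the correlations of these same pairs ranged from 0.678 for HSPA5 with HNRNPK to 0.985. TCP1 and AHSA1 then stood in places 4 and 5 for HSPA8, at 0.790 and 0.784, HNRNPK in place 13 for HSPA5 and XRCC6 in place 3 for HSPA9.

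Other genes of the HSP70 and HSP110 family fell and rose beside the named ones. Of 12 tested, 1 was called higher and 3 lower on day 3 (33.3% called, where 12.2% of all tested genes were) and 3 higher and 4 lower on day 14 (58.3%, where 36.0% were). The 3 that fell at both times were the inducible ones. HSPA1A had a log2 fold change of −1.42 (standard error 0.39, adjusted p = 0.0128) on day 3 and −1.72 (0.39, 4.93e-04) on day 14, lower in 11 and 12 of 15 animals. HSPA6 had −1.01 (0.27, 0.0118) and −1.30 (0.27, 2.20e-04), lower in 11 and 13 animals. HSPA1B had −1.43 (0.46, 0.0338) and −1.78 (0.46, 0.00222), lower in 11 and 10 animals. The day 3 call of HSPA1B was lost when any of animals 1, 2, 3, 7, 10, 11, 13, 14 or 15 was left out, at −1.10 and an adjusted p of 0.0730 without animal 10. All other calls of HSPA1A, HSPA1B and HSPA6 held without animal 10. The genes that rose on day 14 were HYOU1 and HSPA13, both of the endoplasmic reticulum, and HSPA2. Without scaling 0 were called higher and 7 lower, and with RIN in the model 0 were higher and 5 lower. HYOU1 also lost its day 14 call without animal 10 (0.31, adjusted p = 0.0557).

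Few of the remaining regulators and HSP90 genes passed the test. HSP90AB1, the constitutive cytosolic HSP90, had log2 fold changes of −0.15 (adjusted p = 0.600) and −0.24 (0.236), or −0.02 and −0.15 without animal 10. On day 14 HSP90AB1 was called lower with RIN in the model (−0.50, adjusted p = 0.0282) and without scaling (−0.66, adjusted p = 0.00761). TRAP1, the mitochondrial HSP90, was called higher on day 3 (0.37, standard error 0.12, adjusted p = 0.0312) and not on day 14 (0.25, 0.0889), except with the replicate block (adjusted p = 0.0362). The day 3 call of TRAP1 was lost with RIN in the model (adjusted p = 0.0842), without scaling (0.413) and without any 1 of 7 animals (highest adjusted p 0.0804, without animal 2). Among the other heat shock factors, HSF4 was called lower at both times (−0.54, adjusted p = 0.0278, and −0.62, adjusted p = 0.00338), but at a mean of 0.411 FPKM on day 0 it rests on few fragments, and the day 3 call was lost without animal 4, 7 or 11 (highest adjusted p 0.0646) and without scaling (0.0622). HSF2 (−0.23 and −0.09), HSF5 (0.02 and 0.19) and HSBP1 (0.44 and 0.54), a small inhibitor of heat shock factors, did not pass. With the replicate block HSBP1 passed on day 14 (adjusted p = 0.0165). Of 8 small heat shock proteins with a row only HSPB11 was expressed enough to be tested, and it was called on day 14 (0.41, adjusted p = 0.00500) with −0.01 without scaling. HSPB1 was not analysed here.

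Of 35 DNAJ proteins tested other than DNAJB1, 2 were called higher and 2 lower on day 3 (11.4%, near the 12.2% of all tested genes), and 8 higher and 3 lower on day 14, which is 31.4% called on day 14 where 36.0% of all genes were. DNAJB2, an HSP40 with ubiquitin-binding motifs, went from 22.4 to 32.0 and 36.6 FPKM in the mean and was called at both times (0.60, adjusted p = 0.0457, and 1.17, adjusted p = 2.35e-05). The day 3 call of DNAJB2 was lost without any 1 of 12 animals and with RIN in the model (adjusted p = 0.0775). DNAJB6, which suppresses aggregation, rose by day 14 (1.27, standard error 0.26, adjusted p = 1.56e-04), and with the replicate block was called on day 3 too (0.64, adjusted p = 0.0478). DNAJB9, the co-chaperone of HSPA5 known as ERdj4, rose by day 14 as well (0.64, 0.12, 6.25e-05) and was higher in 14 of 15 animals, but without scaling its value was 0.22 (adjusted p = 0.141). DNAJA1, another partner of HSPA8, had −0.53 (adjusted p = 0.118) on day 3 and 0.01 (0.972) on day 14. With the replicate block 4 of these DNAJ genes were higher on day 3, and without scaling 3 were higher and 10 lower on day 14.

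Of 23 cytosolic co-chaperones 3 were called higher and 2 lower on day 3 (21.7%, beside 12.2% of all tested genes), and 4 higher and 2 lower on day 14, a share of 26.1% that was below the 36.0% of all tested genes. CDC37, which brings kinases to HSP90, rose at both times (0.53, standard error 0.15, adjusted p = 0.0146, and 1.03, 0.15, 2.13e-06), in 15 and 14 of 15 animals, from 45.01 FPKM in the mean to 63.0 and 67.9, but the day 3 call was lost with RIN in the model (0.45, adjusted p = 0.0549). BAG1, an exchange factor for HSP70, rose by day 14 (1.02, adjusted p = 9.73e-06; with the replicate block also by day 3, 0.46, adjusted p = 0.0427), and so did SUGT1, an HSP90 co-chaperone (0.53, adjusted p = 0.00253), though without scaling its value was 0.10 (adjusted p = 0.448). BAG3 had −0.59 (adjusted p = 0.334) and −0.61 (0.212), and with the replicate block it was called lower on day 14 (adjusted p = 0.0325). FKBP5 had 0.32 (0.343) and −0.10 (0.743) and did not pass. Without scaling 2 of the co-chaperones were called higher and 11 lower on day 14, and with the replicate block 4 were lower on day 3. With RIN in the model 1 co-chaperone was higher and 5 lower on day 3, and 4 higher and 3 lower on day 14. Of 14 genes of the chaperonin TRiC and its helper prefoldin, 0 were higher and 1 lower on day 3 (7.14% called, below the 12.2% of all tested genes), with 4 at an unadjusted p under 0.05. On day 14, 5 were higher and 0 lower (35.7%, near the 36.0% of all tested genes), all 5 of them prefoldin subunits. PFDN1 (0.69, adjusted p = 5.70e-05) and PFDN2 (adjusted p = 2.97e-04) were higher in 15 of 15 animals and PFDN6 (0.63, 3.67e-04) in 14, the call of PFDN6 being lost without scaling (0.21, adjusted p = 0.288). PFDN1 was called on day 3 as well with the replicate block (0.34, adjusted p = 0.0276). Without scaling 2 of these were higher and 6 lower on day 14, again beside 1460 and 7830 of all tested genes. Between day 3 and day 14, 5 of these 14 genes were called higher, where 8.32% of all tested genes were.

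In the endoplasmic reticulum 9 of 20 chaperones and folding enzymes were called higher on day 14 and 2 lower, 55.0% of the list where 36.0% of all tested genes were called. On day 3 it was 3 higher and 1 lower, beside 12.2% of all tested genes called, or 6 higher and 1 lower with the replicate block, beside 19.2%. This list has the direction of HSPA5 only after scaling: without it 0 were called higher and 4 lower on day 14, and the list's median log2 fold change went from 0.26 to −0.16. With RIN in the model 3 were called higher and 1 lower. Of 6 plasma cell markers, SDC1, TNFRSF17 and MZB1 were called higher on day 14 as well. The summed level of the 6 had medians of 89.5, 93.3 and 93.4 FPKM on the 3 days and was higher on day 14 in 8 of 15 animals, none of the 6 was at 0 throughout a day, and their part in the result was not tested. PDIA3, a disulfide isomerase of the calnexin cycle, was called higher on day 14 (0.37, standard error 0.08, adjusted p = 4.42e-04), with −0.05 without scaling and 0.18 (adjusted p = 0.122, no call) with RIN in the model. With the replicate block it was called on day 3 (0.24, adjusted p = 0.0275). ERO1LB, an oxidase that recharges disulfide isomerases, fell at both times (−0.56, 0.12, adjusted p = 0.00257, and −0.75, 0.12, 9.94e-06), in 15 and 14 of 15 animals, and fell without scaling too (−1.17 on day 14). The regulators of the unfolded protein response were called in both directions. Of 14 tested, 2 were higher and 3 lower on day 3 (35.7%, beside 12.2% of all tested genes). On day 14, 2 were higher and 2 lower (28.6%, beside 36.0%), or 0 higher and 9 lower without scaling, beside 1460 and 7830 of all tested genes. Those called higher were ATF6B and TRIB3 on day 3 and ATF6B and ATF4 on day 14, which are named because they were 2 each time and not by the rule for named genes. EIF2AK3, the kinase PERK, fell (−0.46, 0.08, adjusted p = 5.12e-04, and −0.53, 0.08, 2.78e-06) and was lower in 13 and 15 of 15 animals. ATF6, the sensor that is cut to become a transcription factor, fell as well (−0.29, adjusted p = 0.0181, lost without animal 2 at 0.0532, and −0.25, 0.0164), the day 3 call being lost without scaling (adjusted p = 0.0854) and the day 14 call with RIN in the model (0.131). DDIT3, the stress factor CHOP, was called lower on day 3 (−0.63, adjusted p = 0.0108) and had −0.37 (0.0746) on day 14.

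Of 17 mitochondrial chaperones and proteases 5 were called higher and 2 lower on day 3 (41.2%, beside 12.2% of all tested genes) and 6 higher and 2 lower on day 14 (47.1%, beside 36.0%), or 1 higher and 4 lower on day 14 without scaling. Some genes, such as TRAP1 and DNAJC15, stand in more than 1 list. CLPX, the unfoldase of the matrix protease that also acts on the haem enzyme ALAS2, rose by day 14 (1.32, standard error 0.22, adjusted p = 1.11e-05), from 27.3 to 49.9 FPKM in the mean and in 14 of 15 animals. AFG3L2, an inner membrane protease, was called higher at both times (0.46, adjusted p = 0.00206, and 0.49, 1.18e-04), without scaling 0.42 and 0.07, neither a call (adjusted p = 0.165 and 0.760). DNAJC15 was called on day 14 (0.42, adjusted p = 0.00195), with −0.01 without scaling. Without animal 10 the list of the endoplasmic reticulum had 6 genes called higher on day 3, that of the chaperonin and prefoldin 7 higher on day 14, and the regulators of the unfolded protein response 1 higher and 3 lower on day 14. The other counts of these lists against day 0 then differed by at most 1 gene. Of all tested genes 1042 were higher and 1063 lower on day 3 without animal 10, and 3511 and 3217 on day 14. With RIN in the model 3 mitochondrial genes were higher and 2 lower on day 3 and 4 higher and 2 lower on day 14. The DNAJ proteins then had 0 higher and 1 lower on day 3 and 6 higher and 2 lower on day 14, and the regulators of the unfolded protein response 1 higher and 3 lower on day 3 and 0 higher and 1 lower on day 14.

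**Figure D5:**
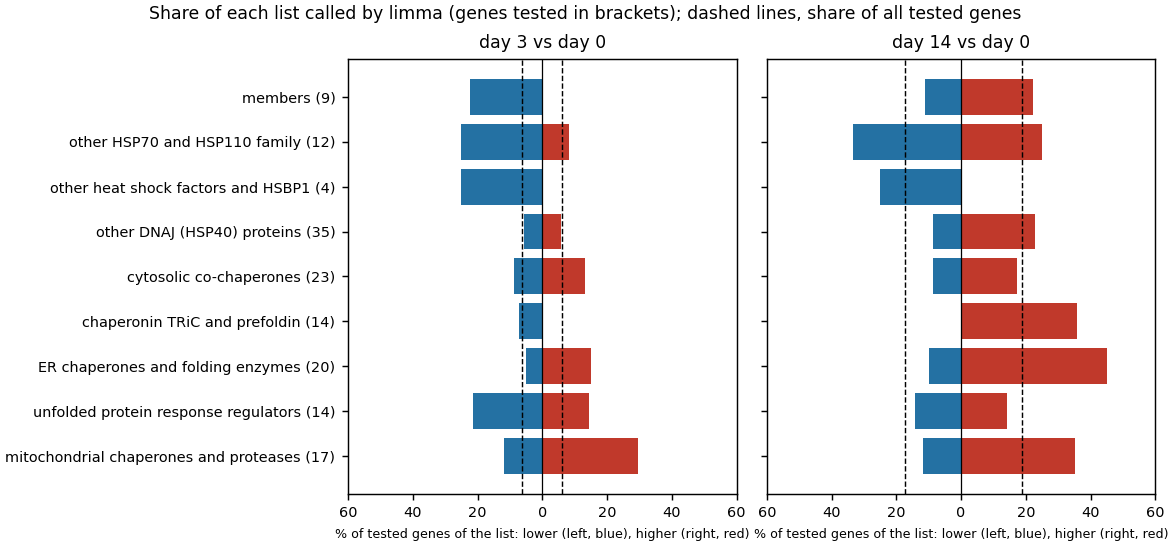
Percentage of the tested genes of each list called lower (blue, left) or higher (red, right) than on day 0; dashed lines are the percentages of all tested genes. On day 3 the HSP70 family has 3 of 12 lower. On day 14 the named set (2 of 9), the HSP70 family (3 of 12) and the DNAJ proteins (8 of 35) lie near the 18.8% line on the higher side. The chaperonin and prefoldin (5 of 14), endoplasmic reticulum (9 of 20) and mitochondrial (6 of 17) lists reach further, and the other lists stay below it. Without scaling the HSP70 family and the endoplasmic reticulum list have 0 higher, and with RIN the HSP70 family has 0. Some genes stand in more than 1 list.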

How the data were processed

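RNA of whole blood from 15 vervets on days 0, 3 and 14 had been depleted of ribosomal and globin RNA and sequenced as stranded paired-end libraries. The authors aligned the reads with STAR, counted fragments per gene with HTSeq against their annotation and deposited FPKM per gene and sample, with no further scaling between libraries. Every FPKM value above 0 was a whole multiple, within a tolerance of 0.05, of what 1 fragment is worth in its gene and sample, so the fragments were recovered for all 33994 genes. Limma-voom on them called 2340, 6545 and 2844 genes in the 3 comparisons. Libraries held 13216275 to 31469332 fragments on genes. RIN was read from the text of a supplementary table of the study. Its mean was higher on each later day, so this covariate overlaps the time point.

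FPKM were scaled by TMM factors from 18753 genes with more than 0.5 CPM in at least 3 samples, 0.1 was added, and limma (version 3.58.1) fitted 1 mean per time point to the log2 values. A fold change on this scale understates the change of low genes. P-values were adjusted by Benjamini-Hochberg over all tested genes. Pairs were compared by 100000 permutations. Samples of the same animal correlated after removal of time point means (mean r 0.328, against −0.023 between animals), and the shared animal is given by the labels, so the block is a true pairing.

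The genes, lists and tests were chosen with earlier results of these data known. From each list the 3 genes with the lowest adjusted p against day 0 were named, all of lists of up to 4 genes, and HSP90AB1, HSPA1A, HSPA1B, HSPA6, HSPB1, BAG3, FKBP5 and DNAJA1 always, plus for each member the 2 most alike genes. Genes were matched by symbol, and RefSeq served for gene types only. Alternatives were the replicate block, RIN, both, other scaling, pseudocounts, filters, limma-voom, limma with a trend and leaving out each animal. TMM over all genes and the correlations without animal 10 were added after seeing the data.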

Additional observations from a re-analysis of the deposited data

How the results depend on the processing

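Counts and log2 fold changes were recomputed under 12 alternatives and without each animal, where the gene passed the filter of the alternative. The genes changed on day 3, day 14 and day 14 against day 3 numbered 2292, 6753 and 2498, and with RIN as a covariate 1435, 3728 and 1117, not all of them the same genes. The replicate block gave 3592 on day 3 and 4455 on day 14 against day 3, block and RIN together 4069 on day 14, no filter on low values 1638 and no scaling 7206 on day 14 against day 3. Leaving out 1 animal gave 1358 to 2359 on day 3 and 792 (without animal 8) to 3115 on day 14 against day 3. Chaperones called on day 3 were 4 with RIN, alone or with the block. On day 14 they were 6 without scaling, and on day 14 against day 3 they were 1 with the replicate block (HSP90B1) and 1 without scaling (HSF1). The block changed no other call of the 9 genes. The cause of these shifts was not tested.

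Signs turned as follows, in log2 fold change, for the 9 genes in all comparisons and the other genes named from the lists in those with day 0. Without scaling on day 14: HSP90AA1 −0.19, HSP90B1 −0.046, HSPA9 −0.26, DNAJA1 −0.41, DNAJC15 −0.0056, HSPB11 −0.0089, PDIA3 −0.050 and TRAP1 −0.17. Without scaling on day 3: HSP90B1 −0.0047, HSF5 −0.0074 and HSPB11 −0.0071. Without scaling on day 14 against day 3: DNAJB1 −0.27, HSP90B1 −0.042, HSPA5 −0.039, HSPA8 −0.10, HSPA9 −0.32, HSPD1 −0.21 and HSPH1 −0.21. With RIN, and with RIN and the block, the values on day 14 were −0.29 and −0.34 for DNAJA1, 0.10 and 0.085 for FKBP5, −0.18 and −0.15 for HSP90AA1, and −0.032 and −0.016 for HSPA9. On day 3 they were −0.051 and −0.048 for HSP90B1. On day 14 against day 3 they were −0.077 and −0.14 for DNAJB1, −0.041 and −0.033 for HSPA9, and −0.078 and −0.090 for HSPH1. DNAJA1 on day 14 was −0.0039 with median-of-ratios scaling and −0.019 with TMM over all genes. Without 1 animal the ranges were −0.085 to 0.18 for DNAJA1 and −0.16 to 0.0086 for FKBP5 on day 14. On day 3 they were −0.021 to 0.084 for HSF5, −0.030 to 0.095 for HSP90B1, −0.0012 to 0.10 for HSPB11 and −0.069 to 0.053 for SUGT1. Of these, HSP90B1, PDIA3, DNAJC15 and HSPB11 on day 14 were calls with the scaled values.

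The pair of HSPD1 and HSPE1 was not run. FPKM are relative to each library, so absolute amounts of RNA per volume of blood were not measured.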
